A study of Rubus idaeus with 6 samples.

Results

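The 4 linkage group 4 (LG4) gene models described here in axillary buds of 2 red raspberry cultivars code for cytochrome P450 enzymes. They are Ro04_G36297 and Ro04_G02536 of family 72 subfamily A, Ro04_G36206 of family 71 subfamily B, and Ro04_G07139 of family 78 subfamily A. They are 4 of 20 gene models on LG3 and LG4 that the supplementary annotation used here describes as P450s, and 4 of the 19951 gene models with deposited values. The 4 were chosen by their normalized counts, because these differed between the cultivars in the same libraries. Their differences are therefore given as a description with no test, and tests are given only for P450s and neighbouring gene models that were not chosen by value.

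P450s are heme enzymes that insert an oxygen atom into a substrate, with electrons passed on by a P450 reductase and in some reactions by cytochrome b5. In plants they act in the synthesis and breakdown of hormones, sterols, terpenoids and defence compounds. Enzymes of subfamily CYP72A oxidize triterpenoids in licorice, and in Arabidopsis CYP72A9 hydroxylates gibberellins. The CYP71 family is large and acts mostly in specialized metabolism. In Arabidopsis CYP78A5, also named KLUH, prolongs growth of leaves, floral organs and seed coats.

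The 3 libraries of each cultivar came from field-grown plants of annual-fruiting (AF) ‘Heritage’ and biennial-fruiting (BF) ‘Wakefield’, which the study calls biological replicates. Buds were taken at a single date in early November, which is spring at the New Zealand site, and no plant was treated. With 1 cultivar for each habit, fruiting habit and other differences between the cultivars cannot be told apart. Values are normalized counts, which are reads per gene model scaled by the size factor of the library, with no correction for gene length. A count is therefore scaled for comparison between libraries, but not between gene models. Reads were aligned to black raspberry gene models, and how well those of each cultivar match them was not tested. The scaling does not correct for such a match. The reads recovered from the normalized counts numbered 7345603 to 14977596 per library. Bud markers were present in every library, with TCP12 (Ro04_G02625) at 31.0 to 85.4 normalized counts and KNAT6 (Ro04_G02787) at 312 to 650.1. DRM1 (Ro03_G06544) was at 7677 to 10678 in ‘Heritage’ and 5252 to 6957 in ‘Wakefield’. The 3 bud markers summed to 8307 to 11279 and 5595 to 7669 normalized counts, which did not overlap. Most of each sum is DRM1, while TCP12 and KNAT6 overlapped between the cultivars. None of the 3 passed on its own in limma. The 7 listed genes of leaf photosynthesis summed to 9170 to 10380 normalized counts in ‘Heritage’ and 14878 to 20528 in ‘Wakefield’. These sums did not overlap either, and 5 of the 7 were lower in ‘Heritage’ at an adjusted p under 0.05 from limma. Of all 17898 gene models tested, 17.5% were lower by the same rule, and the cultivars did not overlap for 53.2%. The part of bud and leaf tissue in the values below was not tested. In buds, fewer cells of a type and less RNA per cell cannot be told apart.

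The CYP72A gene model with the largest contrast, Ro04_G36297, was read at 141, 89.9 and 66.7 normalized counts in ‘Heritage’ libraries 62, 63 and 64. In ‘Wakefield’ libraries 59, 60 and 61 it was at 4.70, 4.67 and 2.97. All ‘Heritage’ libraries thus lay above all ‘Wakefield’ libraries, and the lowest of them was 14.2 times the highest of the others. Lack of overlap alone is common here. The cultivars did not overlap for 53.2% of the 17898 gene models tested (27% with ‘Heritage’ above and 26.2% with ‘Wakefield’ above), which counts gaps of any size. Its closest Arabidopsis gene is CYP72A13 (AT3G14660), and it lies at 3804836 bp of LG4 in the black raspberry assembly ORUS 4115-3 v3.0. Mean normalized counts were 99.3 ± 38.2 for ‘Heritage’ and 4.11 ± 0.988 for ‘Wakefield’ (SD, n = 3 each), a ratio of 24.2. On the scale of log2(normalized count + 1) the difference was 4.25 with a standard error of 0.30. The ‘Wakefield’ level rests on 12 reads over the 3 libraries, with an exact 95% Poisson interval of 6.20 to 21.0, and the ‘Heritage’ level on 304 reads (271 to 340 reads). These intervals cover counting error alone. With so few reads the difference moves with the pseudocount, and it was 2.90 with a pseudocount of 10.

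Ro04_G02536, whose closest Arabidopsis gene is CYP72A14 (AT3G14680), lies at 3785974 bp of LG4. Its normalized counts were 737, 509 and 481 in ‘Heritage’ libraries 62, 63 and 64. In ‘Wakefield’ libraries 59, 60 and 61 they were 101, 85.5 and 40.8. The cultivars did not overlap here either, and library 61 was lowest of all for both CYP72A gene models. ‘Heritage’ averaged 575 ± 140.3 against 75.9 ± 31.4 (SD, n = 3 per cultivar), a ratio of 7.58 and a log2 difference of 2.98 (standard error 0.37). Within ‘Heritage’, library 62 was the highest for both gene models, and library 64 was the lowest.

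**Figure D1:**
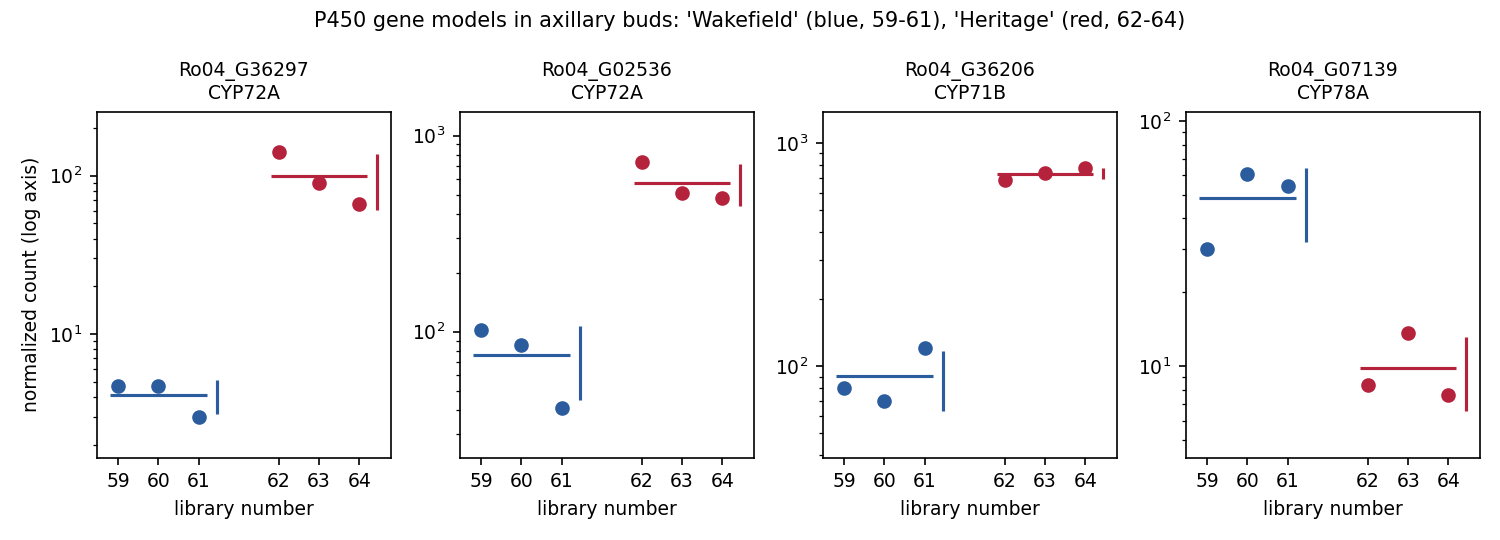
Normalized count (log axis) of each P450 gene model in each library, with ‘Wakefield’ libraries 59 to 61 in blue and ‘Heritage’ libraries 62 to 64 in red; horizontal lines are means and vertical bars are 1 SD (n = 3). Ro04_G36297, Ro04_G02536 and Ro04_G36206 are higher in every ‘Heritage’ library, and Ro04_G07139 is higher in every ‘Wakefield’ library.

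Both belong to a row of 4 CYP72A gene models, which also holds Ro04_G02535 and Ro04_G02537. The row spans 24.6 kb and lies inside the part of LG4 that the study fine-mapped. In order of position these are Ro04_G02535 at 3780254 bp, Ro04_G02536 5.72 kb further on, Ro04_G02537 after another 9.57 kb and Ro04_G36297 after another 9.29 kb. A P450 of family 735, Ro04_G36198 at 3783146 bp, lies between the first and the second. Its closest Arabidopsis gene CYP735A2 hydroxylates cytokinins, and it had 1 to 6 reads per library. It was under the filter, and without one it did not pass (adjusted p = 0.334 from limma).

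Within the row the directions differed. Ro04_G02535, closest to CYP72A9, was lower in ‘Heritage’, at 150 to 186 normalized counts against 201 to 274 in ‘Wakefield’. Its log2 difference was -0.51 (standard error 0.15, adjusted p = 0.0485 from limma). Ro04_G02537 had 1822 to 2347 normalized counts in ‘Heritage’ and 1257 to 1689 in ‘Wakefield’, with a log2 difference of 0.53 (standard error 0.16, adjusted p = 0.0507 from limma). With the recovered reads, DESeq2 gave an adjusted p of 0.0069 and edgeR (TMM) one of 0.0273, and limma without library 61 gave 0.0334. Ro04_G02537 did not pass in limma without library 59, 60, 62, 63 or 64 (adjusted p = 0.11, 0.131, 0.142, 0.13 and 0.0719). Nor did it pass in limma with a pseudocount of 0.1 (0.0533) or with no filter (0.0603). The call for Ro04_G02535 was lost in limma without library 60, 61, 62, 63 or 64 (adjusted p = 0.121, 0.109, 0.0725, 0.158 and 0.119). With all libraries it was also lost in limma with a pseudocount of 0.1 (0.0507) and with no filter (0.0579). The ratio of Ro04_G02537 to Ro04_G02535 was 11.1 to 13.3 in ‘Heritage’ and 4.59 to 6.91 in ‘Wakefield’. An exact permutation test on the log2 ratio gave p = 0.1. That is the lowest p that 3 libraries per cultivar allow, so this test could not pass at 0.05.

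**Figure D2:**
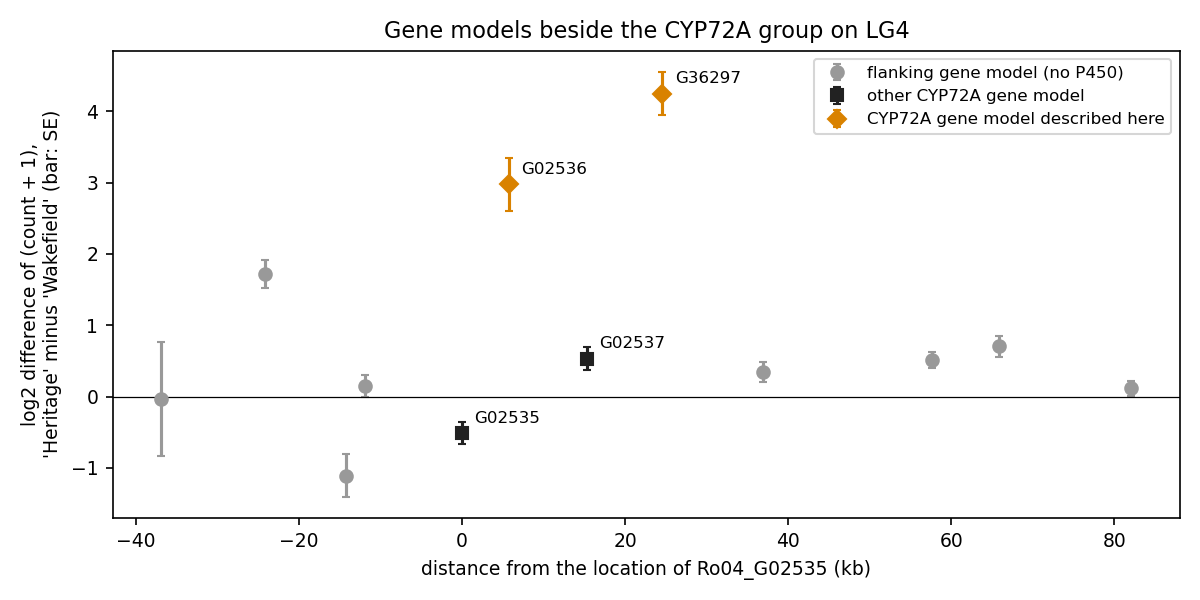
Log2 difference of (normalized count + 1), ‘Heritage’ minus ‘Wakefield’, with its standard error, against distance in kb from Ro04_G02535, for the CYP72A gene models (orange and black) and the flanking gene models that are no P450s (grey). Ro04_G36297 and Ro04_G02536 stand at 4.25 and 2.98, while Ro04_G02537 and Ro04_G02535 beside them stand at 0.53 and -0.51.

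Ro04_G36297 and Ro04_G02537 have the same closest Arabidopsis gene, CYP72A13. The sources do not say how reads matching related gene models were treated, so values of these 4 gene models are uncertain to that extent. Ro04_G36297 was at 6.02%, 4.51% and 3.66% of the normalized count of Ro04_G02537 in ‘Heritage’ libraries 62, 63 and 64. In ‘Wakefield’ libraries 59, 60 and 61 it was at 0.351%, 0.371% and 0.176%. The percentages of the cultivars did not overlap, but Ro04_G36297 was chosen by value, so this adds nothing to its counts.

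Of all reads of the 4 CYP72A gene models, Ro04_G02536 held 19.7% ± 1.65 in ‘Heritage’ and 4.50% ± 2.16 in ‘Wakefield’ (SD over 3 libraries). Ro04_G36297 held 3.35% ± 0.758 and 0.241% ± 0.0788 (SD, n = 3 each). In single libraries its share ran from 0.150% (95% Wilson interval 0.0584% to 0.386%) in library 61 to 4.14% (3.51% to 4.88%) in library 62. Ro04_G02535 held 5.81% ± 0.599 in ‘Heritage’ and 13.8% ± 2.66 in ‘Wakefield’ (SD over 3 libraries), and Ro04_G02537 held 71.1% ± 2.05 and 81.4% ± 3.94. Ro04_G02537 thus took most CYP72A reads in both cultivars. Shares sum to the whole, so a larger share of one gene model lowers the others. While the share of Ro04_G02537 was lower in ‘Heritage’, its normalized count averaged 2054 ± 268 there and 1428 ± 230 in ‘Wakefield’ (SD, n = 3 each). The summed normalized count of the 4 was 2896 ± 458 in ‘Heritage’ and 1747 ± 199 in ‘Wakefield’ (SD over 3 libraries). This sum and the shares include Ro04_G02536 and Ro04_G36297, which were chosen by value as higher in ‘Heritage’, so they add nothing to the counts. Because longer gene models collect more reads, these shares compare libraries and not amounts of transcript.

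**Figure D3:**
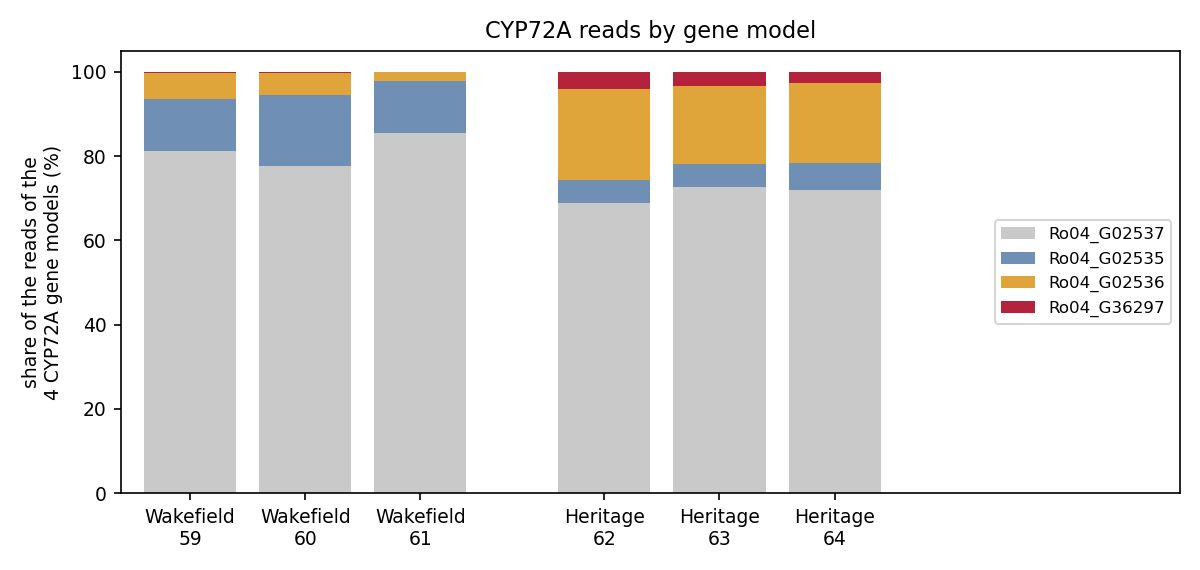
Share in percent of the reads of the 4 CYP72A gene models that each gene model took, stacked to the whole, for each library. Ro04_G02536 and Ro04_G36297 take larger shares in the 3 ‘Heritage’ libraries (means of 19.7% and 3.35%) than in the 3 ‘Wakefield’ libraries (4.50% and 0.241%).

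The family 71 gene model, Ro04_G36206, was even in ‘Heritage’, with normalized counts of 686, 736 and 771 in libraries 62, 63 and 64. In ‘Wakefield’ libraries 59, 60 and 61 it had 79.8, 70.0 and 121. It lies at 4518477 bp of LG4, beyond the fine-mapped part, and its closest Arabidopsis gene is CYP71B21 (AT3G26190). ‘Heritage’ averaged 731 ± 42.7 against 90.3 ± 27.1 (SD, n = 3 per cultivar), a ratio of 8.10 and a log2 difference of 3.04 (standard error 0.21). Its coefficient of variation was 5.84% in ‘Heritage’ and 30.0% in ‘Wakefield’. The order of libraries was not that of the CYP72A gene models, since library 62 was the lowest ‘Heritage’ library and library 61 the highest ‘Wakefield’ library.

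Of the other family 71 gene models, Ro04_G36244 was also higher in ‘Heritage’. Its closest Arabidopsis gene, CYP71B6, acts on indole-3-acetonitrile. It had 2183 to 2827 normalized counts in ‘Heritage’ and 659 to 1272 in ‘Wakefield’, a log2 difference of 1.58 (standard error 0.28, adjusted p = 0.0100 from limma). Ro04_G07213, closest to CYP71B23, had 10, 8 and 10 reads in ‘Heritage’ and 0, 0 and 6 reads in ‘Wakefield’. It was under the filter of at least 10 normalized counts in at least 3 libraries.

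The family 78 gene model ran the other way. Ro04_G07139, closest to CYP78A5 (KLUH, AT1G13710), had normalized counts of 8.37, 13.6 and 7.62 in ‘Heritage’ libraries 62, 63 and 64. In ‘Wakefield’ libraries 59, 60 and 61 it had 30.1, 60.7 and 54.2. The lowest ‘Wakefield’ library was 2.21 times the highest ‘Heritage’ library, the narrowest gap among the 4 gene models. The means were 9.87 ± 3.27 and 48.3 ± 16.1 (SD, n = 3 each), so that ‘Wakefield’ was 4.89 times ‘Heritage’, with a log2 difference of -2.16 (standard error 0.33). These are few reads, 31 in ‘Heritage’ (exact 95% Poisson interval 21.1 to 44.0) and 144 in ‘Wakefield’ (121 to 170 reads). With a pseudocount of 10 the difference was -1.52. It lies at 6562081 bp of LG4.

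A second gene model of this subfamily, Ro04_G15203 at 3647420 bp of LG4, is closest to CYP78A10 and lies inside the fine-mapped part. It was not chosen by value, and it too was lower in ‘Heritage’, at 34.5, 30.0 and 15.2 normalized counts against 181, 60.7 and 77.2 in ‘Wakefield’. Its log2 difference was -1.87 (standard error 0.49, adjusted p = 0.0322 from limma). It did not pass without library 61, 62, 63 or 64 (adjusted p = 0.0584, 0.0644, 0.0791 and 0.0863 from limma). The ‘Wakefield’ libraries were ordered differently for the 2 CYP78A gene models, since library 59 was the highest for Ro04_G15203 and the lowest for Ro04_G07139.

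Among all 17898 gene models that passed the filter, 148 had a higher log2 difference than Ro04_G36297, 362 a higher one than Ro04_G36206 and 373 a higher one than Ro04_G02536, while 346 had a lower one than Ro04_G07139. All 4 passed the filter, but Ro04_G36297 only through its ‘Heritage’ libraries and Ro04_G07139 only through its ‘Wakefield’ libraries. The spread among ‘Heritage’ libraries was wide for 3 of them. Ro04_G36297 had an SD of 0.54 on the log2 scale, Ro04_G07139 of 0.41 and Ro04_G02536 of 0.33, against a median of 0.15 over all gene models tested. Ro04_G36206 was below that median, at 0.08. Among ‘Wakefield’ libraries the SD was 0.30 to 0.69 for the 4, against a median of 0.20. When each library was left out in turn, the log2 difference stayed at 3.96 to 4.50 for Ro04_G36297, 2.59 to 3.23 for Ro04_G02536, 2.88 to 3.27 for Ro04_G36206 and -2.46 to -1.97 for Ro04_G07139.

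The other 16 P450 gene models were taken by description and not by value, although earlier results of these libraries were known when the list was made. Of these, 12 passed the filter on low values, and 6 were higher and 3 were lower in ‘Heritage’ at an adjusted p under 0.05 from limma. By the same rule, 16% of the 17898 were called higher and 17.5% lower. Among the P450s called lower, Ro04_G12494 passed the filter only through its ‘Wakefield’ libraries. The median log2 difference of the 12 was 0.48, against 0.01 over all gene models tested. The number called higher was 3 without library 62 and 3 without library 63, and the number called lower was 1 without library 61, 62, 63 or 64. With edgeR and with DESeq2 on the recovered reads, 8 were higher and 3 were lower.

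The subfamily CYP76C, whose Arabidopsis enzymes oxidize the monoterpenol linalool, has 4 gene models in the annotation used here. Of these, 3 were called higher in ‘Heritage’ at an adjusted p under 0.05 from limma, against 16% of the 17898 tested. Ro04_G36298 at 6404831 bp of LG4 had 907, 587 and 576 normalized counts in ‘Heritage’ libraries 62, 63 and 64 against 239, 137 and 157 in ‘Wakefield’ libraries 59, 60 and 61. Its log2 difference was 1.96 (standard error 0.28, adjusted p = 0.00517 from limma). Ro04_G36299, closest to CYP76C4 and next to it at 6425529 bp, had 634, 321 and 253 against 73.3, 49.8 and 123 (log2 difference 2.26, adjusted p = 0.0148 from limma). Library 62 was the highest for both. Ro04_G36268, closest to CYP76C3, had 246 to 471 in ‘Heritage’ and 34.2 to 181 in ‘Wakefield’ (log2 difference 2.32, adjusted p = 0.0458 from limma). It lost its call without library 60, 61, 62, 63 or 64 (adjusted p = 0.120, 0.115, 0.141, 0.105 and 0.0915 from limma). With all libraries it also lost its call in limma with a pseudocount of 0.1 (0.0506) and with no filter (0.0547). Ro04_G36290, which like Ro04_G36298 is closest to CYP76C6, had 1615 to 1791 in ‘Heritage’ and 1340 to 1653 in ‘Wakefield’ and did not pass (log2 difference 0.23, adjusted p = 0.196 from limma).

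The other families have 1 to 3 gene models each. Ro04_G08866, closest to the sterol demethylase CYP51G1, had 1466 to 1503 normalized counts in ‘Heritage’ and 997 to 1274 in ‘Wakefield’ (log2 difference 0.44, adjusted p = 0.0395 from limma). It did not pass without library 60, 61, 62, 63 or 64 (adjusted p = 0.103, 0.0956, 0.0981, 0.128 and 0.102 from limma). On LG3, Ro03_G15773 of family 718 had 2867 to 3230 against 1672 to 2205 (log2 difference 0.70, adjusted p = 0.0157 from limma). With library 62 or 63 left out it missed the threshold (0.0575 and 0.0568). Its neighbour Ro03_G33003 of the same family had 1684 to 1875 against 1328 to 1563 (log2 difference 0.31) and did not pass in limma (adjusted p = 0.0750), but did in limma with a mean-variance trend (0.036), edgeR (0.0416) and DESeq2 (0.0331). Ro04_G12494, closest to CYP86B1, which hydroxylates very long fatty acids of suberin, was lower in ‘Heritage’. It had 6.36 to 8.57 normalized counts against 21.6 to 38.9 (log2 difference -1.78, standard error 0.24, adjusted p = 0.00432 from limma). These are 7, 7 and 9 reads in ‘Heritage’ and 23, 25 and 34 in ‘Wakefield’. Ro04_G12494 passed the filter only through its ‘Wakefield’ libraries, where it is higher, so its call is no independent support.

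The remaining P450s had few reads and were under the filter. Without a filter, limma called Ro04_G36176, Ro04_G02775 and Ro04_G07213 higher in ‘Heritage’ (adjusted p = 0.0145, 0.0309 and 0.0442), and DESeq2 on recovered reads called none of them (adjusted p = 0.107, 0.0571 and 0.126). Ro04_G36176, closest to CYP704B1 of pollen wall synthesis, had 4, 5 and 10 reads in ‘Heritage’ and 1 read in each ‘Wakefield’ library. Ro04_G02775 of family 718 had 14, 8 and 10 reads against 1, 3 and 2. The cytochrome b5 gene model of the interval, Ro04_G15210, had 239 to 263 normalized counts in ‘Heritage’ and 152 to 223 in ‘Wakefield’ (log2 difference 0.51, adjusted p = 0.0615 from limma).

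**Figure D4:**
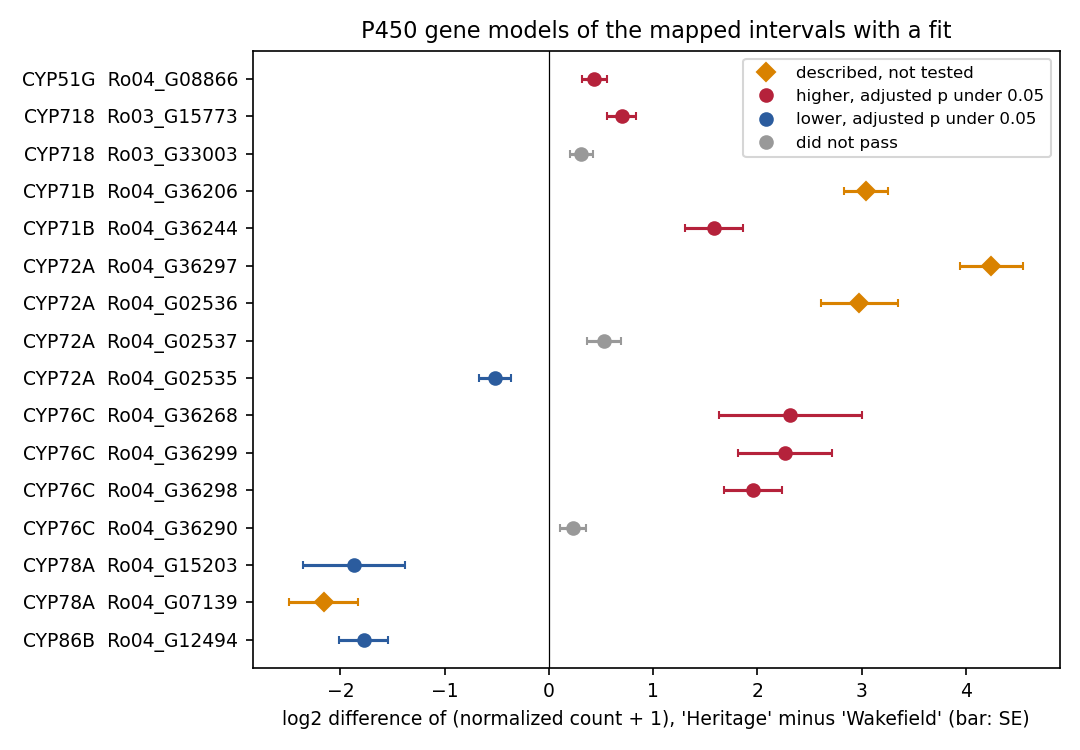
Log2 difference of (normalized count + 1), ‘Heritage’ minus ‘Wakefield’, with its standard error, for the 16 P450 gene models with a fit, ordered by subfamily. Orange diamonds are the 4 gene models chosen by value and not tested, red and blue points passed at an adjusted p under 0.05 from limma as higher or lower in ‘Heritage’, and grey points did not pass; both CYP78A gene models lie below 0, and CYP72A gene models lie on both sides of 0.

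Among the 16 P450 gene models with a fit, ‘Heritage’ library 62 was the highest of its cultivar for 12, which is 75.0% of them. Over all gene models tested it was the highest for 42.2%. For the 4 described gene models it was the highest for 2, Ro04_G36297 and Ro04_G02536. In ‘Wakefield’, library 59 was the highest for 9 of the 16, and over all gene models for 36.1%. Whether library 62 differs from the other ‘Heritage’ libraries in tissue or handling was not tested.

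**Figure D5:**
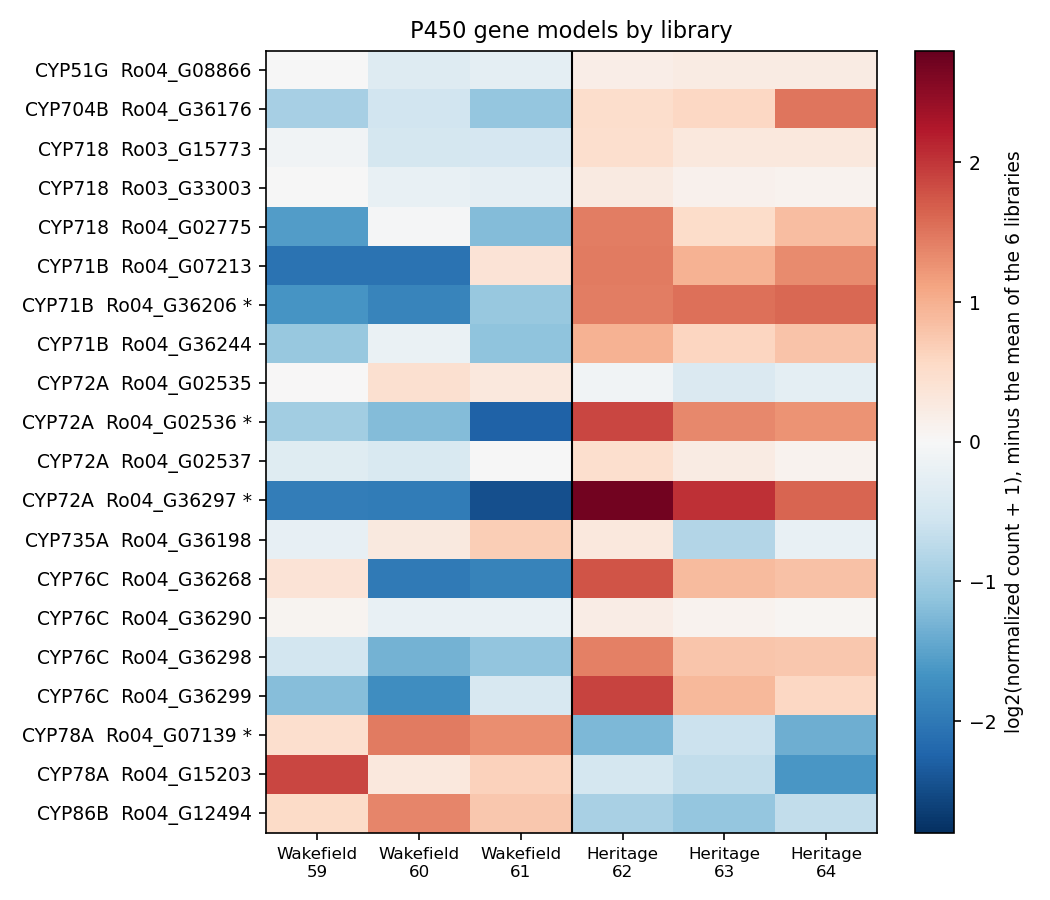
Log2(normalized count + 1) of the 20 P450 gene models in each library, minus the mean of the 6 libraries, from blue (below) to red (above); asterisks mark the 4 described gene models, and the black line divides ‘Wakefield’ from ‘Heritage’. The CYP72A gene models Ro04_G36297 and Ro04_G02536 and all 4 CYP76C gene models have their highest value in library 62.

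Gene models beside the 4 P450s went in both directions. The 4 nearest on each side of each in the supplementary annotation used here, P450s left out, are 24 gene models, since the CYP72A pair shares its flanks. This annotation holds fewer gene models than the paper counts in its regions of LG3 and LG4, so closer ones can be missing. Of these 6 were higher and 4 were lower in ‘Heritage’ at an adjusted p under 0.05 from limma, against 16% and 17.5% of the 17898. The number called higher was 3 without library 62 and 2 without library 63, and the number called lower was 2 without library 61, 62 or 64. Their median log2 difference was 0.03.

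Beside the CYP72A row, a ribosomal protein S15A gene model (Ro04_G02530) was higher in ‘Heritage’ (log2 difference 1.72, adjusted p = 0.00272 from limma). So were a DnaJ-domain gene model (Ro04_G02541, 0.51, adjusted p = 0.0164) and ACT domain repeat 4 (Ro04_G02543, 0.70, adjusted p = 0.0164). An adenine nucleotide alpha hydrolase-like gene model (Ro04_G02532) was lower (log2 difference -1.11, adjusted p = 0.0342 from limma). The listed flanks nearest to the row, Ro04_G02533 before it and Ro04_G36295 after it, did not pass (log2 differences 0.15 and 0.34, adjusted p = 0.485 and 0.105 from limma).

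Beside Ro04_G36206, the Mediator subunit gene PFT1 (Ro04_G02642, log2 difference 0.54, adjusted p = 0.0283 from limma) and a choline transporter-like gene model (Ro04_G36207, 0.58, adjusted p = 0.0252) were higher. A metallo-hydrolase (Ro04_G02641, -0.80, adjusted p = 0.00453) and an aspartyl protease (Ro04_G02646, -0.80, adjusted p = 0.00721) were lower. The nearest listed flank, Ro04_G02645 at 6.88 kb, had 1196 to 1201 normalized counts in ‘Heritage’ and 1215 to 1235 in ‘Wakefield’ (log2 difference -0.03, adjusted p = 0.809 from limma). Beside Ro04_G07139, a HORMA domain gene model (Ro04_G07137, 1.08, adjusted p = 0.00702) was higher and a nuclear factor Y subunit C13 gene model (Ro04_G07141, -0.98, adjusted p = 0.0231 from limma) was lower. The nearest listed flank on each side, Ro04_G07140 and Ro04_G07138, did not pass (log2 differences 0.06 and -0.23, adjusted p = 0.730 and 0.125 from limma).

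Profiles most like those of the 4 gene models were sought among 1201 described gene models of both intervals that are no P450s. Likeness was the root mean square difference of log2(normalized count + 1) over the 6 libraries, after each profile was centred on its mean. The 4 were chosen by their contrast between the cultivars, so a near profile shares that contrast by construction and is no support for it. Nearest to Ro04_G36297 were nudix hydrolase homolog 18 (Ro04_G36128, at 0.36) and endonuclease 2 (Ro04_G02696, at 0.40). Nearest to Ro04_G02536 were receptor like protein 1 (Ro03_G32957, at 0.26) and an AMP-dependent synthetase (Ro04_G07175, at 0.33). Ro04_G36206 had no neighbour closer than a protein kinase (Ro04_G24688, at 0.51) and allantoate amidohydrolase (Ro03_G05835, at 0.55). Ro04_G36128, Ro04_G02696 and Ro04_G24688 met the required mean of at least 20 normalized counts only through their ‘Heritage’ libraries. Nearest to Ro04_G07139 were peptide transporter 2 (Ro04_G36204, at 0.29) and the zinc transporter ZIP7 (Ro03_G05832, at 0.33). The CYP72A pair stood 0.69 apart by the same measure, which takes in their unlike log2 differences of 4.25 and 2.98. Ro04_G36206 stood 0.67 from Ro04_G02536 and 0.81 from Ro04_G36297.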

How the data were processed

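The authors filtered reads with Trimmomatic and SortMeRNA, aligned them with STAR to black raspberry gene models (ORUS 4115-3 v3.0) and ran DESeq2. Tool versions, the counter and its use of strand were not given in the sources used here. Signal values deposited by the authors are read counts over library size factors. Fold changes, standard errors, statistics and p-values of the authors' own comparison stand beside them and were not used. In every library 100% of values were whole reads within 0.001 of a read.

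The main test was limma 3.58.1 (R 4.3.3) on log2(value + 1), for the 17898 gene models with at least 10 normalized counts in at least 3 libraries, or in as many as the smaller group has when a library is left out. Adjusted p-values are Benjamini-Hochberg values over all gene models tested, called under 0.05. The test sets the difference between cultivars against the spread among libraries of a cultivar, which limma moderates over all gene models tested. Alternatives were pseudocounts of 0.1 and 10, no filter, a filter of 50, a mean-variance trend, edgeR 4.0.16 (TMM, RLE) and DESeq2 1.42.0 on recovered reads, and each library left out. The fits were tested on simulated data. Python 3.11.15 was used for tables.

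The P450s, lists and tests were chosen with earlier results of these data known. Named are the 4 gene models, all other P450s described in the part of the supplementary table used here (974 gene models of LG3 and 1024 of LG4), cytochrome b5, flanking gene models that passed, and the 2 described profiles nearest to each with a mean of at least 20. The flanking gene models that did not pass (Ro04_G02533, Ro04_G36295, Ro04_G02645, Ro04_G07140 and Ro04_G07138) were named after their values were seen. Of 3 listed pollen markers, all were read, at a sum of 835 to 889 normalized counts in ‘Heritage’ and 789 to 1078 in ‘Wakefield’. Nearly all of this is DUO3 (Ro03_G13459) and a pollen Ole e 1 gene model (Ro04_G23128). The CYP704B1 gene model Ro04_G36176, itself a P450 above, had only 4, 5 and 10 reads in ‘Heritage’ and 1 in each ‘Wakefield’ library.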

Additional observations from a re-analysis of the deposited data

How the results depend on the processing

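All 167 alternative values of the 12 other P450s past the filter kept their direction. Those of the 4 described gene models did too, which their choice by value makes no sign of stability. With a pseudocount of 10, the log2 difference was 2.90 for Ro04_G36297 and -1.52 for Ro04_G07139. With 1 library left out, the other P450s called higher in ‘Heritage’ numbered 3 to 6 and those called lower 1 to 3. Among flanking gene models these were 2 to 7 and 2 to 5, and among all gene models tested 7.30% to 15.3% and 9.52% to 16.6%. DESeq2 called 7 flanking gene models lower, against 4 in limma, and the cause was not tested. Calls for these 12 were lost in 25 cases, 21 of them with a library left out, and gained in 11. Without a filter 3 of the 4 P450s with few reads were also called higher. The median log2 difference of all gene models lay between -0.0062 and 0.0188 in all fits. No paired analysis was possible because the cultivars share no library number. Depth limits the P450s with few reads, for which a missed call does not show equal levels.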
